A study of Mus musculus with 2 samples.

Results

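Expression of 9 genes for brush border peptidases and amino acid or peptide transporters was described in the jejunal crypt epithelium of 375KO mice. The genes were taken as a list of names, of 27998 genes in the matrices, and all 9 were found there. They are the aminopeptidases Anpep and Enpep, the dipeptidyl peptidase Dpp4, the peptidyl-dipeptidase Ace, the meprin subunits Mep1a and Mep1b, and the transporters Slc6a19, Slc15a1 and Slc7a7. Each gene was read in the 10 cell types that the authors annotated, separately in each library. The list is a set of names and sets no threshold on expression, but it was drawn up with earlier results of these data known. The cell types themselves were named by expression in these cells, and tests between them therefore describe how far the annotated classes stand apart.

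Single-cell RNA-seq libraries were made from jejunal crypts of 2 male mice, 12 months old, with 1 library per mouse. Both mice carry the knockout of miR-375, a whole-body deletion made by CRISPR/Cas9. The labels give the strain as C57BL6/2J and the extraction protocol as B6 albino. The founders came from F1 embryos of FVB and B62J parents and were backcrossed to B6 albino. Wild-type libraries were not analysed here, so every comparison is between cell types of 375KO mice, and none of them measures an effect of losing miR-375. The mice are called replicate 1 and replicate 2.

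Enzymes of the stomach and pancreas cut dietary protein to oligopeptides. These are cut further by peptidases anchored in the brush border, the microvillus membrane of enterocytes. Free amino acids and small peptides then cross that membrane through separate carriers, and cytosolic peptidases split most of the peptides inside the cell. Transporters of the basolateral membrane pass amino acids on to the blood. These functions belong to differentiated enterocytes, which arise from transit-amplifying (TA) cells in the crypt and mature as they move up the villus.

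The authors kept 2082 cells with 44017234 UMIs (unique molecular identifiers, each counting 1 captured RNA molecule) in replicate 1 and 1193 cells with 22163354 UMIs in replicate 2. No barcode was shared between the kept cells of the libraries. Enterocytes were 931 and 382 of these cells, and TA cells 320 and 323. Of 53 cell type markers, 46 were highest in their own type in both mice, among them 6 of 6 enterocyte markers and 6 of 6 enteroendocrine (EEC) markers. Only 2 of 6 TA markers, which are cell cycle genes, and 1 of 3 secretory progenitor markers did so. The mitochondrial share of UMIs in enterocytes had a median of 13.2% in replicate 1 and 7.59% in replicate 2. Levels below are counts per 1000000 UMIs of all genes (CPM), summed over the cells of a type in 1 mouse.

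In mm10, Anpep spans chr7:79821803-79861059, Enpep chr3:129269175-129332720, Dpp4 chr2:62330073-62412231, Ace chr11:105967945-105989964, Mep1a chr17:43474324-43502812, Slc6a19 chr13:73679745-73704865, Slc15a1 chr14:121459621-121505252 and Slc7a7 chr14:54369442-54417780. Dpp4 and Ace each overlap an antisense gene, Gm13561 and Gm11651, and Slc7a7 overlaps Oxa1l on the opposite strand. All of these overlaps are on the opposite strand. Whether the counting used strand is not given in the sources used here, and whether reads of the overlaps were shared was not tested.

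Since all 9 genes were higher in enterocytes than in TA cells, their promoters were searched for short motifs of transcription factors known in intestinal epithelium. The RefSeq table for GRCm38.p6 gave 13 promoters for 8 of the 9 genes, each from 250 bases before to 50 bases after the start site. The letters searched on both strands were CAAAGTNCA for HNF4, TTAATNATT for HNF1, TTTATNG for CDX and AGATAA for GATA, which do not overlap one another in these promoters. The CDX letters were found in Dpp4 and Mep1a, and in 10.9% of all 32851 promoters. The GATA letters were found in Dpp4 and Slc7a7, and in 11.2% of all promoters. The HNF4 letters (1.41% of all promoters) and HNF1 letters (1.47%) were in none of these windows. The promoters that hold a match are shown in the direction of the gene, 5′ to 3′, with the matches in capitals and their positions in bases from the start site. That of Dpp4 is chr2:62412182-62412481, with the CDX letters on the other strand at -228 and the GATA letters at -32. That of Mep1a is chr17:43502724-43503023, with the CDX letters at 13. That of Slc7a7 is chr14:54417653-54417952, with the GATA letters at -190, and a second listed start of Slc7a7 holds the same match. All of them are on the minus strand.
Dpp4: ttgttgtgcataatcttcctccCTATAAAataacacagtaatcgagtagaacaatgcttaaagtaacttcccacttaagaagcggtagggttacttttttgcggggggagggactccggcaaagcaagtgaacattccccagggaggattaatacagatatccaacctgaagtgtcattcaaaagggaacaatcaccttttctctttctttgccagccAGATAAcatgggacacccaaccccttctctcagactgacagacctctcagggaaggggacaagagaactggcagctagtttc
Mep1a: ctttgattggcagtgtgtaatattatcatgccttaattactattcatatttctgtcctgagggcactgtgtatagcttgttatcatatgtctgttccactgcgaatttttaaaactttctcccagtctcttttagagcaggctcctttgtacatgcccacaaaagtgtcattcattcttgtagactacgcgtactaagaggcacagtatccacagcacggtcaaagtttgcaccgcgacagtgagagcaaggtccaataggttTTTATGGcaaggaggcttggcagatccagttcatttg
Slc7a7: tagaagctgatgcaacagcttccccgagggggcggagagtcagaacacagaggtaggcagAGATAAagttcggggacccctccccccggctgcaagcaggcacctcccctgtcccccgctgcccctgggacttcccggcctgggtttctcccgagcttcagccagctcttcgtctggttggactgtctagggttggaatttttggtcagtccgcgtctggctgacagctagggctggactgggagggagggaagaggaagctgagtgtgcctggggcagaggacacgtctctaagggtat
A match is a description of the letters only.

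By CPM, enterocytes had the highest level of 8 of the 9 genes in both mice, and Slc6a19 was higher in EEC. After TMM scaling, which adjusts for the make-up of each sum, enterocytes were the highest for 9 of 9 genes in both mice. With the stricter cell filter described below they were the highest by CPM for 6 genes in replicate 1 and 8 in replicate 2. The share of all genes that were highest in enterocytes was not taken, so these counts are not read as particular to the 9 genes. Of all UMIs of a gene, enterocytes held from 68.9% (Slc7a7, replicate 2) to 98.7% (Slc15a1, replicate 2). In the test of enterocytes against TA cells, all 9 genes were higher in enterocytes, with log2 fold changes from 2.66 for Dpp4 to 7.83 for Slc15a1. The plot of levels by cell type shows both mice.

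**Figure D1:**
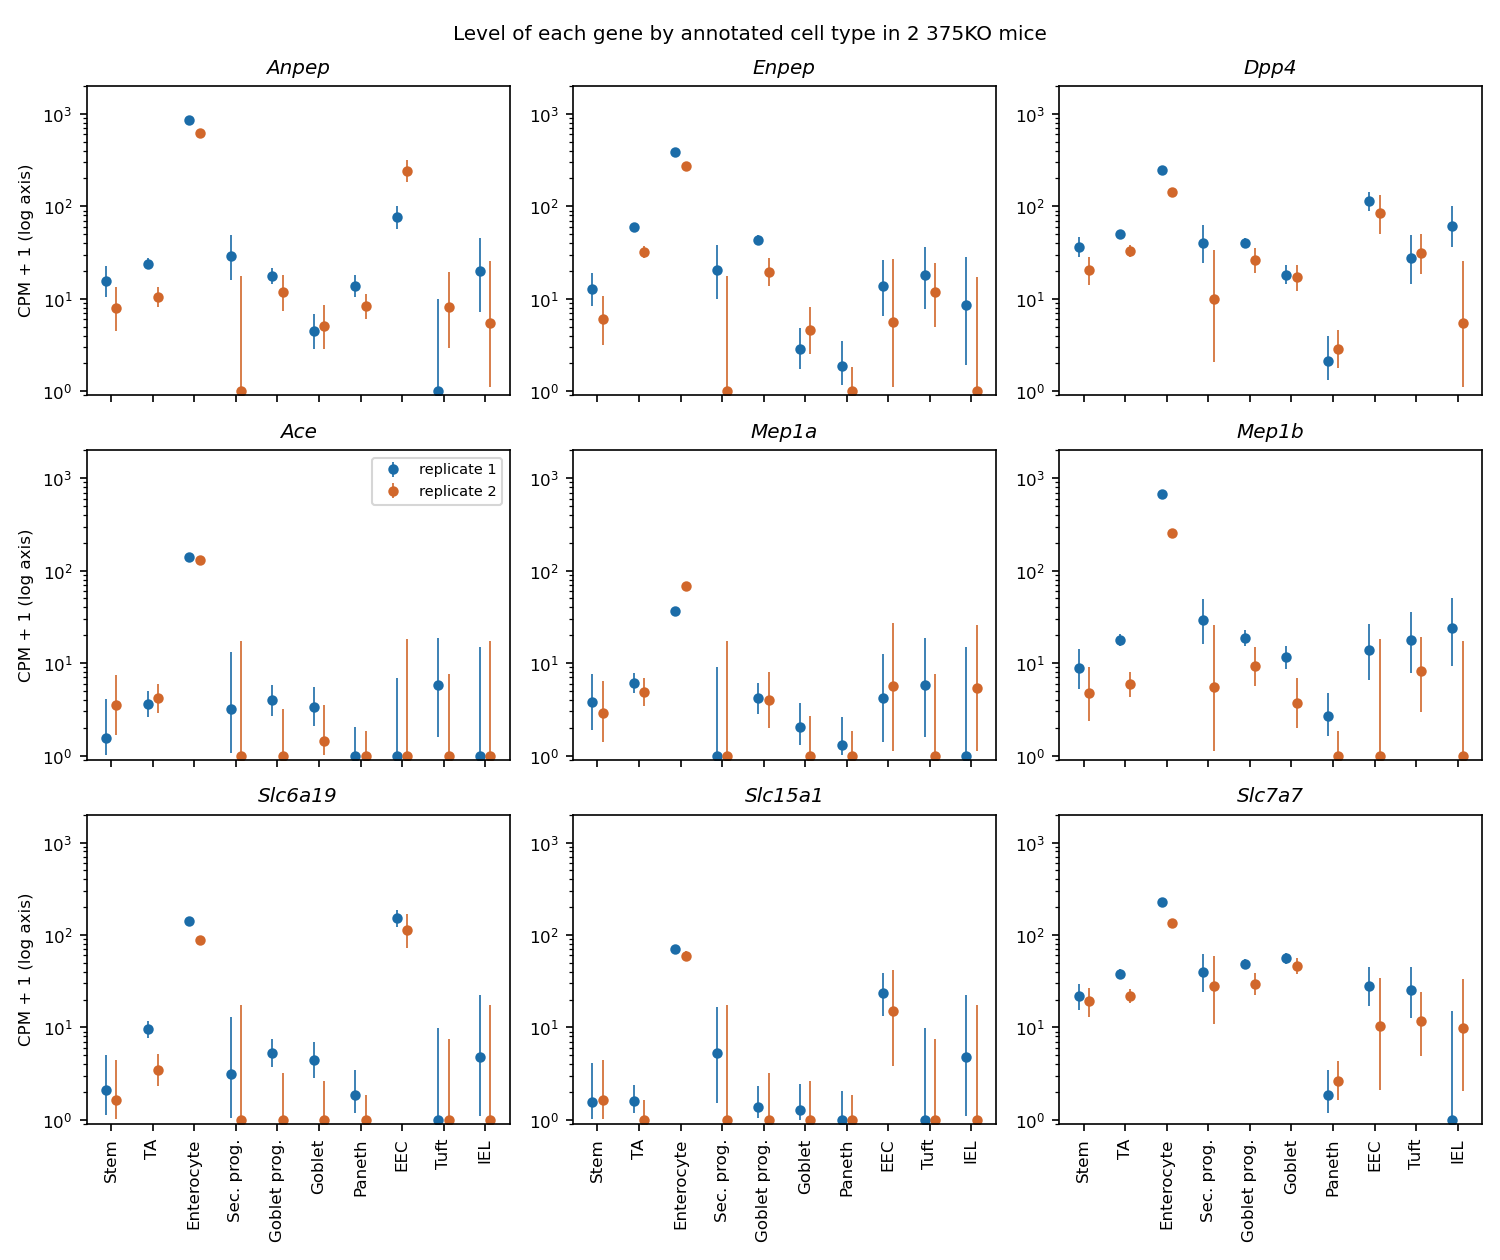
CPM + 1 on a log axis for each of the 9 genes in the 10 annotated cell types (Sec. prog. and Goblet prog., secretory and goblet progenitors; IEL, intraepithelial lymphocytes), with 1 point per mouse and exact Poisson 95% intervals for counting error. Enterocytes are at the top in 8 panels in both mice, while the EEC points of Slc6a19, at 150 and 111 CPM, lie above its enterocyte points at 141 and 86.2 CPM.

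Anpep encodes aminopeptidase N, which removes neutral residues from the amino end of peptides. Its level in enterocytes was 847 CPM in replicate 1 and 619 CPM in replicate 2, against 22.9 and 9.44 CPM in TA cells. The levels of the 2 types did not overlap, and the log2 fold change was 5.92 with SE 0.58 (adjusted p = 2.73e-05, edgeR). Enpep encodes aminopeptidase A, which acts on acidic residues, and stood at 389 and 269 CPM in enterocytes against 58.5 and 31.3 CPM in TA cells. Its log2 fold change was 3.32 with SE 0.21 (adjusted p = 4.01e-14, edgeR), and TA cells were the second highest type in both mice.

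Dpp4 encodes a peptidase that releases dipeptides next to proline or alanine. It was at 247 and 141 CPM in enterocytes and 48.8 and 32.0 CPM in TA cells, and gave the smallest log2 fold change of the 9 genes, 2.66 (SE 0.20, adjusted p = 1.61e-12, edgeR). It stood at 16.1 to 39.1 CPM in goblet cells and goblet progenitors, at 113 and 83.6 CPM in EEC, and at 60.9 and 4.44 CPM in IEL. The IEL values rest on 16 and 1 UMIs, and the IEL sums also held markers of other cells, with macrophage markers at 1839 and 57.7 CPM, plasma cell markers at 122 and 4929 CPM and enterocyte markers at 678 and 4.44 CPM, whose part in the Dpp4 values was not tested. Ace, whose product cuts dipeptides from the carboxyl end and is best known from the vascular endothelium, was at 138 and 129 CPM in enterocytes and 2.61 and 3.15 CPM in TA cells. Its log2 fold change was 5.97 with SE 0.31 (adjusted p = 6.99e-13, edgeR).

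The meprin subunits are metalloproteases of the same family that cut within protein and peptide chains. Mep1b was at 666 and 256 CPM in enterocytes against 16.8 and 4.90 CPM in TA cells, a log2 fold change of 5.87 with SE 0.22 (adjusted p = 1.75e-18, edgeR). Mep1a was at 35.3 and 67.7 CPM against 5.09 and 3.85 CPM, a log2 fold change of 3.80 with SE 0.28 (adjusted p = 5.73e-12, edgeR). Among the cells kept by the authors, Mep1a was the only one of the 9 genes with a higher enterocyte level in replicate 2 than in replicate 1.

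Among the transporters, Slc15a1 (PepT1) takes up dipeptides and tripeptides with protons. It was at 70.3 and 58.5 CPM in enterocytes, while TA cells held 5 UMIs (0.59 CPM) in replicate 1 and 0 in replicate 2. In replicate 2 the enterocyte level was at least 112-fold higher than the limit that a count of 0 allows in TA cells, taken as 3 counts of that sum. That limit takes the 0 as an uncorrected count. The fitted log2 fold change was 7.83 with SE 0.36 (adjusted p = 1.28e-16, edgeR).

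Slc6a19 (B0AT1) carries neutral amino acids with sodium through the apical membrane. It was at 141 and 86.2 CPM in enterocytes against 8.53 and 2.45 CPM in TA cells, a log2 fold change of 4.82 with SE 0.30 (adjusted p = 1.45e-11, edgeR). Slc7a7 (y+LAT1) exchanges cationic for neutral amino acids at the basolateral membrane. It was at 224 and 133 CPM against 37.2 and 20.8 CPM, a log2 fold change of 3.04 with SE 0.20 (adjusted p = 6.53e-14, edgeR). Goblet cells were the second highest type for Slc7a7 in both mice, at 54.7 and 45.6 CPM.

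Of all 11013 genes tested, 29.1% were higher in enterocytes than in TA cells and 22.6% were lower, and the median log2 fold change was 0.06, against 4.82 for the 9 genes. The direction was the same in each mouse for 9 of 9 genes. With only cells of at least 2000 detected genes and at most 10% mitochondrial UMIs, the 9 genes were all still higher, but their median log2 fold change was 3.93. That filter left 148 of 931 enterocytes in replicate 1 and 307 of 382 in replicate 2.

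Against the mean of the other 8 epithelial types, 9 of 9 genes were again higher in enterocytes, with a median log2 fold change of 5.74 (background 31.3% higher and 23.2% lower of all genes, edgeR). The median was 4.50 with the other epithelial cells of each mouse pooled. Taken singly, 9 of 9 genes were higher in enterocytes than in stem cells (background 27.8%), secretory progenitors (20.4%), goblet progenitors (26.9%), goblet cells (23.9%), Paneth cells (21.3%) and tuft cells (21.1%). Against EEC, 8 of 9 were higher (background 21.6%), and the exception was Slc6a19. With the stricter cell filter Dpp4, Slc15a1 and Mep1a did not pass against EEC either. The p values rest on 18 sums from 2 mice, with 1 spread per gene shared by all types.

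Where a type had no UMI of a gene in both mice, only a bound on the difference can be given, here in CPM. Each bound takes the 0 as an uncorrected count. The matrices also hold entries stored as 0, whose origin is not given in the sources used here. In EEC no cell held such an entry for Ace, and this is not given for the other types. Ace was at least 162-fold and 188-fold higher in enterocytes than the limit in Paneth cells in replicates 1 and 2, at least 28.5-fold and 9.28-fold higher than in EEC, and at least 12.1-fold and 9.71-fold higher than in IEL. Slc15a1 was at least 82.3-fold and 85.1-fold higher than the limit in Paneth cells and 9.69-fold and 10.9-fold higher than in tuft cells. For Slc6a19 in tuft cells the bounds were 19.4-fold and 16.1-fold, and for Mep1a in secretory progenitors 5.42-fold and 5.06-fold. The bounds for Paneth cells depend on the scale, since 6 Paneth markers took 51.3% and 40.6% of the UMIs of those cells. With the TMM factors of the fit they were 24.8-fold and 21.2-fold for Ace and 12.7-fold and 9.58-fold for Slc15a1, while the bounds for EEC, tuft cells and secretory progenitors were higher than in CPM.

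Between stem cells and TA cells most of the 9 genes did not pass the threshold. Enpep did, rising from 11.8 and 4.99 CPM in stem cells to 58.5 and 31.3 CPM in TA cells, with a log2 fold change of 2.29 with SE 0.31 (adjusted p = 7.76e-06, edgeR). The call ended without the mouse term, at an adjusted p of 0.148 in edgeR with the same direction. Thus 1 of 9 genes was called, against a background of 2.93% higher and 1.9% lower. Slc6a19 had a log2 fold change of 2.48 with an adjusted p of 0.105 in edgeR, and it passed when genes of low counts were kept in the test (adjusted p = 0.00257). The other 7 genes had log2 fold changes from -0.84 for Slc15a1 to 0.83 for Mep1a, and Slc15a1 had 1 UMI in the stem cells of each mouse.

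The other genes of protein digestion and amino acid transport were read from a list of 25 names, of which 22 had enough counts to be tested. Against TA cells, 18 were higher in enterocytes, 3 were lower and 1, Slc1a1, did not pass (log2 fold change 0.24, adjusted p = 0.513, edgeR). All 5 tested brush border peptidases and all 4 cytosolic peptidases were higher. The largest differences were those of Ggt1, a gamma-glutamyltransferase (7.83, SE 0.35), the dipeptidase Dpep1 (5.52, SE 0.27), the neutral endopeptidase Mme (4.70, SE 0.24) and the neutral amino acid carrier Slc43a2 (4.69, SE 0.25).

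Slc3a2, the heavy chain that pairs with Slc7a7, was at 250 and 153 CPM in enterocytes and 90.8 and 58.6 CPM in TA cells, a log2 fold change of 1.83 with SE 0.17 (adjusted p = 9.56e-11, edgeR). The heavy chain thus differed less than its partner Slc7a7, at 3.04, and this gap between genes was not tested.

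The listed genes that were lower in enterocytes were the transporters Slc7a5, Slc1a5 and Slc7a1. Slc7a5, which also pairs with Slc3a2 and carries large neutral amino acids, had a log2 fold change of -3.79 with SE 0.53 (adjusted p = 4.84e-07, edgeR), from 36 and 30 UMIs in TA cells to 4 and 1 in enterocytes. Slc1a5, a glutamine carrier, had -2.38 (SE 0.24) and the cationic carrier Slc7a1 had -1.19 (SE 0.19). The lowest of the listed genes that were higher was Slc38a2, at 0.53 (SE 0.17, adjusted p = 0.00935, edgeR). Tmprss15, Slc6a14 and Slc9a3 had 3, 1 and 56 UMIs in all and were not tested.

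**Figure D2:**
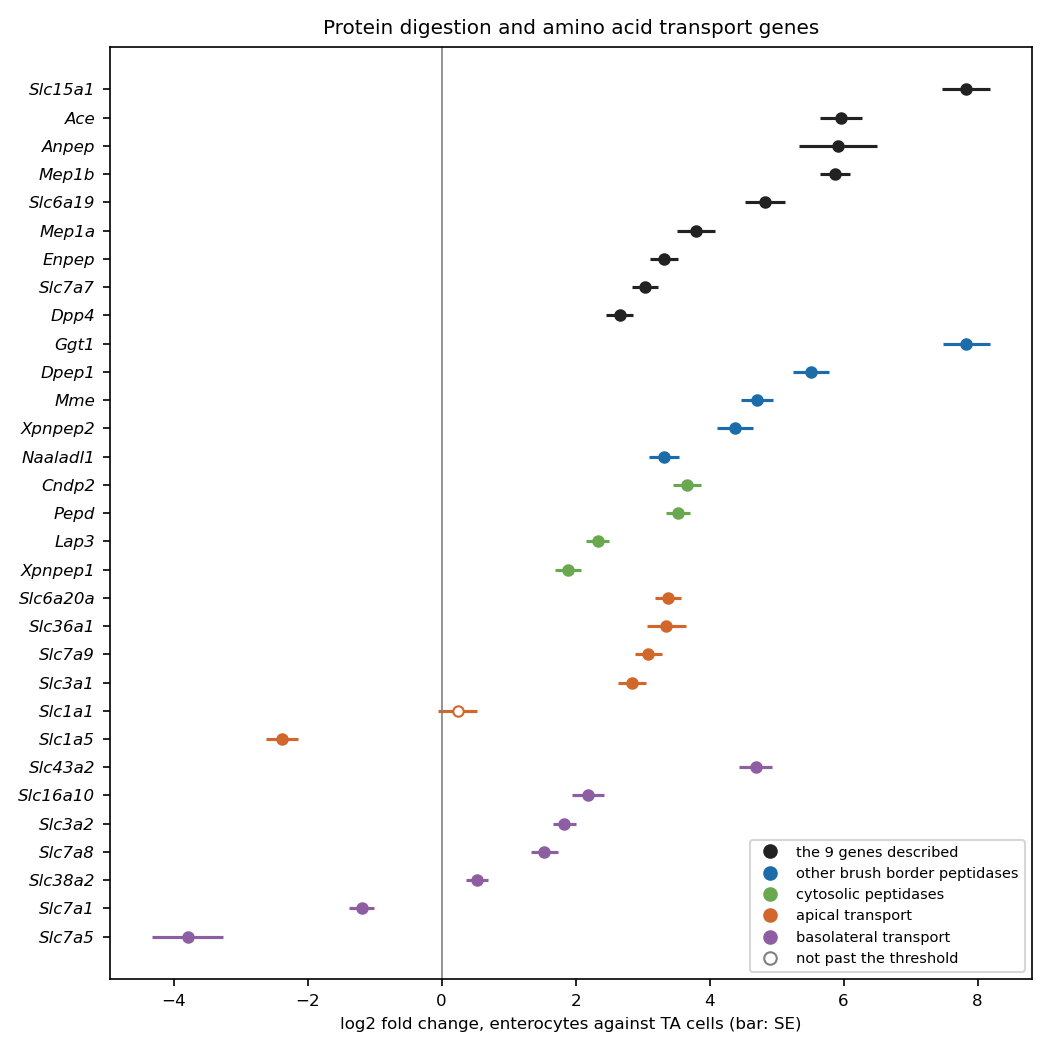
Log2 fold change of enterocytes against TA cells with its SE for the 9 genes (black) and the 22 tested genes of the list, coloured by group, where an open point did not pass an adjusted p of 0.05 in edgeR. The 9 genes lie between 2.66 and 7.83, and Slc7a5, Slc1a5 and Slc7a1 lie below 0.

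EEC, the hormone-producing cells, were by CPM the highest of the other types in both mice for Anpep, Dpp4, Slc6a19 and Slc15a1. After TMM scaling this did not hold for Anpep in replicate 1, at 48.1 in EEC and 82.3 in Paneth cells. Slc6a19 had 93 UMIs in 30 of 54 EEC of replicate 1 and 24 UMIs in 7 of 20 EEC of replicate 2, with at most 12 and 5 UMIs in a single cell. Its EEC level was 106% and 129% of the enterocyte level in CPM. The order of EEC and enterocytes for Slc6a19 turned with scaling, since after TMM scaling enterocytes were higher, at 140 against 95.1 in replicate 1 and 80.3 against 77.0 in replicate 2.

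In edgeR the difference of Slc6a19 between enterocytes and EEC was 0.45 on the log2 scale (SE 0.30, adjusted p = 0.243), and over 7 settings it ran from -0.96 to 0.56 with adjusted p from 0.0595 to 0.774. A p that misses the threshold does not show equal levels. Dpp4 in EEC was at 45.6% and 59.4% of its enterocyte level and Slc15a1 at 32.1% and 23.8%. Both were lower in EEC (adjusted p = 5.70e-06 and 3.38e-06, edgeR), but neither passed with the stricter cell filter (adjusted p = 0.275 and 0.587). With that filter the CPM of Dpp4 and Slc15a1 in replicate 1 was higher in EEC (122 and 28.5) than in enterocytes (88.2 and 14.5).

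The other 6 genes were lower in EEC, with adjusted p up to 0.00334 (edgeR). With the stricter cell filter Mep1a did not pass (adjusted p = 0.0509, edgeR). Anpep and Ace passed there at adjusted p of 0.0198 and 0.0288 in edgeR. Among the EEC kept by the authors, Anpep was at 75.7 and 241 CPM, and in replicate 2, 18 of its 52 UMIs came from 1 cell. Mep1b had 8 and 0 UMIs, Enpep 8 and 1, Mep1a 2 and 1, and Slc7a7 17 and 2. Ace had 0 in 54 and 20 EEC, which allows a share of up to 5.56% and 15% of cells with a UMI.

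Enterocyte markers were low in the same EEC. The 6 markers summed to 912 and 149 CPM, 2.77% and 0.88% of the enterocyte level, and 4 of them were at 0 in replicate 2. Entries written as 0 for Fabp1 stood in 21 of 54 and 13 of 20 EEC, and for Slc6a19 in 0 and 2. Such stored zeros made up 2.56% and 4.19% of all matrix entries, and their origin is not given in the sources used here. Goblet markers summed to 6033 and 2122 CPM in EEC and IEL markers to 3.22 and 1281 CPM. The part of doublets and of free RNA in the EEC values was not tested.

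**Figure D3:**
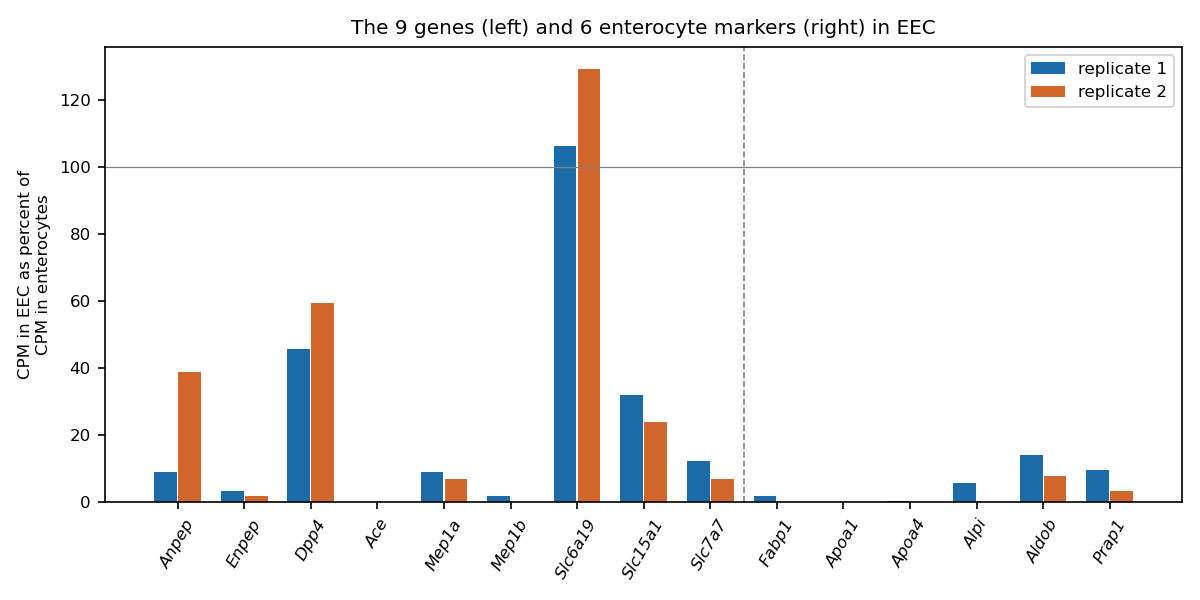
Level in EEC as a percent of the level in enterocytes (both in CPM) for the 9 genes, left of the dashed line, and 6 enterocyte markers, right of it, with 1 bar per mouse and a line at 100%. Slc6a19 stands at 106% and 129% and Dpp4 at 45.6% and 59.4%, while Ace and Apoa1 are at or close to 0.

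The share of cells with a UMI was compared after thinning every cell to 5000 UMIs, which left out, for example, 1 enterocyte and 39 of 50 IEL of replicate 1. Anpep was found in 82.2% of the enterocytes of replicate 1, with a 95% interval from 79.5 to 84.6%, and in 62.6% of those of replicate 2, with one from 57.5 to 67.4%. In Paneth cells, which lack a brush border of this kind, it was found in 7.69% and 5.56%. Without thinning these shares were 91.7% and 74.9% in enterocytes and 35.9% and 38.9% in Paneth cells, whose median depth was 44683 and 80817 UMIs against 16973 and 13404 in enterocytes.

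Slc6a19 was found in 39.8% and 25.9% of thinned enterocytes, in 39.6% and 35.0% of EEC, and in 0 of 78 and 0 of 54 Paneth cells, which allows up to 3.85% and 5.56%. Its unthinned shares were 72.6% and 40.6% in enterocytes, 55.6% and 35.0% in EEC, and 3.85% and 0% in Paneth cells. Ace was found in 39.8% and 29.6% of thinned enterocytes, in 1.25% and 1.86% of TA cells and in no Paneth cell. Unthinned, it was in 63.9% and 44.2% of enterocytes. For both genes the shares in enterocytes lay above the limits in Paneth cells in both mice.

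A thinned enterocyte had a UMI of a median of 5 of the 9 genes in replicate 1 and 3 in replicate 2. Cells with 5 or more of the genes made up 59.9% and 36.9% of enterocytes but at most 0.362% of cells of any other type. Across enterocytes, log2 of the thinned count plus 1 had a Pearson r above 0 for 36 of 36 pairs of the genes in each mouse. The median r was 0.31 over 930 cells and 0.44 over 382 cells, and the highest was that of Anpep with Mep1b, 0.65 in both. These r are across cells of 1 library, which share their source, and thinned counts are sparse. The share of pairs above 0 among all genes was not counted, so the 36 of 36 are not read as particular to these genes.

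Enterocytes fell into 5 of the numbered clusters that the authors made from the same cells, so the clusters are described without a test. Cluster 1 held 282 and 72 enterocytes and had the highest summed level of the 6 enterocyte markers, 67360 and 60391 CPM. Cluster 2 held 183 and 107 cells, had the lowest, 3379 and 1782 CPM, and the highest sum of the TA markers. The 9 genes together had 4617 and 4963 CPM in cluster 1 and 515 and 204 CPM in cluster 2, with 3235 and 2310 CPM in cluster 3, 1365 and 666 CPM in cluster 6 and 3065 and 2227 CPM in cluster 9.

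In replicate 1, Ace and Slc15a1 had the steepest course over the clusters. Ace was at 379 and 556 CPM in cluster 1 but 107 and 95.3 CPM in cluster 3 and 6.0 and 4.6 CPM in cluster 2. Slc15a1 was at 166 and 224 CPM in cluster 1, 72.1 and 47.7 CPM in cluster 3 and 2.86 and 1.31 CPM in cluster 2. In replicate 2 the lowest values of Slc15a1 and Slc6a19 (357 CPM in cluster 1 and 1.31 in cluster 2) rest on 2 UMIs each, so the order of the genes is not given there. Enpep and Slc7a7 had the flattest, with a ratio of cluster 1 to cluster 2 of 3.35 and 7.04 for Enpep and 3.92 and 7.19 for Slc7a7.

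Cluster 9 had little Fabp1 (1729 and 1491 CPM, against 27856 and 13746 in cluster 3) but levels of the 9 genes near those of cluster 3. Mep1a stood out there, at 107 and 144 CPM, against 37.9 and 164 CPM in cluster 1. Thus Mep1a was highest in cluster 9 in replicate 1 and in cluster 1 in replicate 2, while the other 8 genes were highest in cluster 1 in both mice. Cluster 2 was the lowest for 9 of 9 genes in both mice. How many of all genes follow these orders was not counted, so they are not read as particular to the 9 genes.

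**Figure D4:**
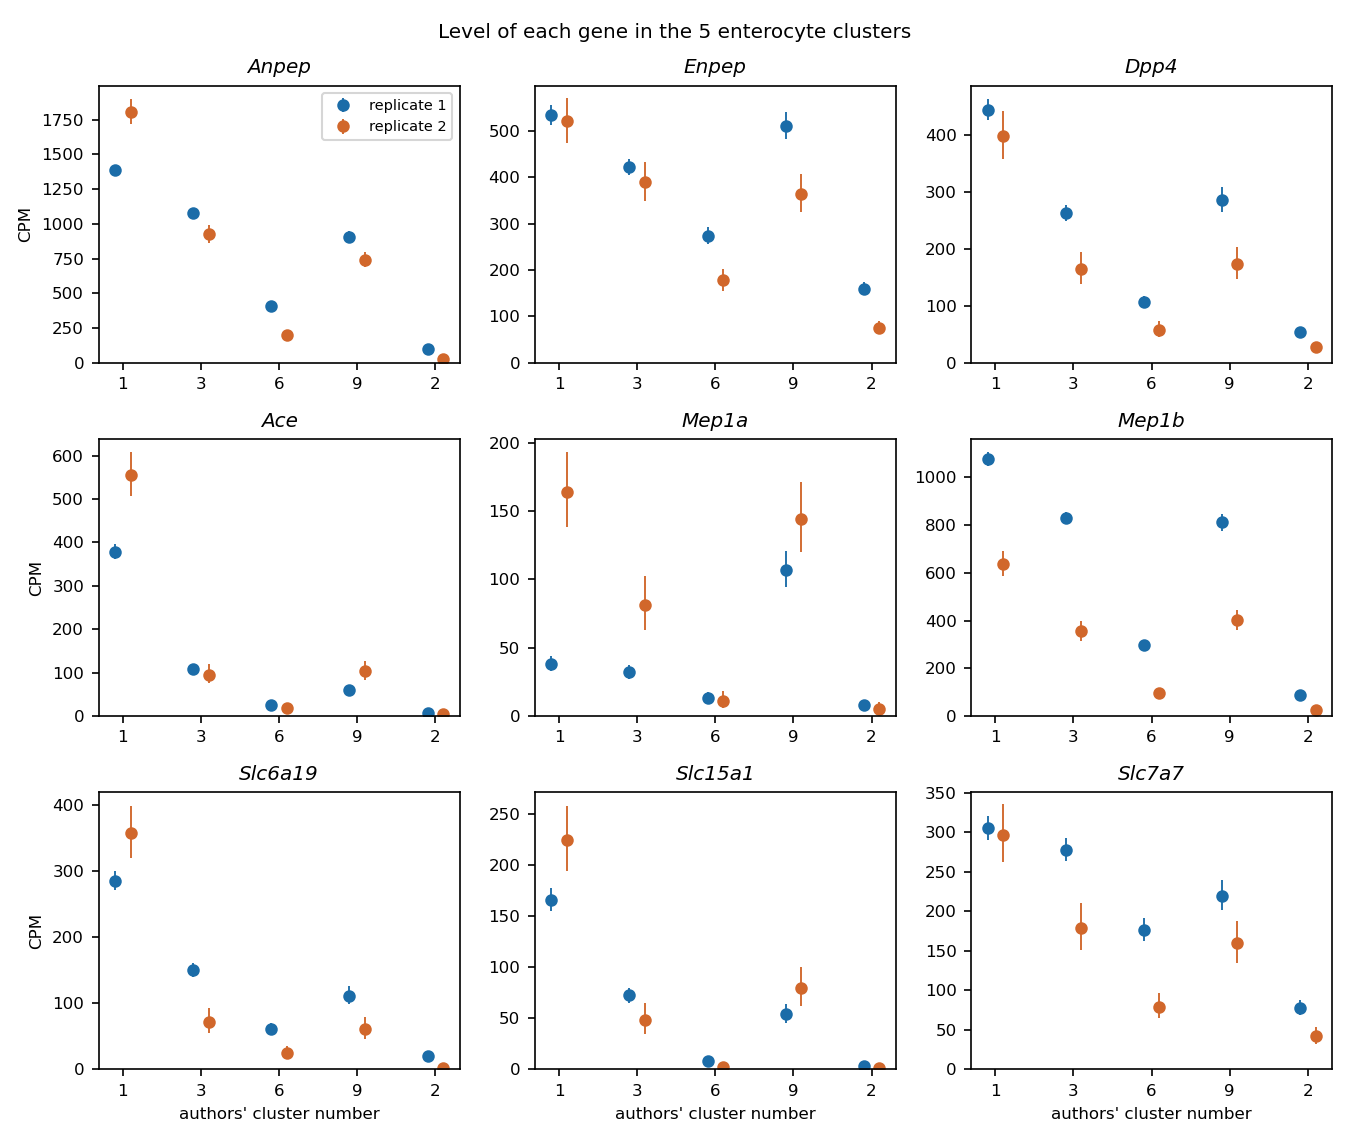
CPM of each of the 9 genes in the 5 enterocyte clusters numbered by the authors, with 1 point per mouse and exact Poisson 95% intervals for counting error. Levels are highest in cluster 1 and lowest in cluster 2 for most genes, Ace falls from 379 and 556 CPM to 6.0 and 4.6 CPM, and Mep1a in replicate 1 peaks in cluster 9 at 107 CPM.

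The mice differed in level, and with 1 library each this was not tested. Over all enterocytes 8 of 9 genes were higher in replicate 1, by 1.07-fold for Ace to 2.60-fold for Mep1b, and Mep1a was 1.92-fold higher in replicate 2. A difference of at least 1.5-fold was seen for 5 of 9 genes, and for 24.3% of the 3062 genes with 200 or more UMIs in the enterocytes of each mouse. Cluster 1 made up 30.3% of enterocytes in replicate 1 and 18.8% in replicate 2. Within cluster 1, 4 of the genes were higher in replicate 1 and 5 in replicate 2, among them Anpep at 1390 against 1808 CPM.

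With the 5 clusters weighted equally, 2 of 9 genes differed by 1.5-fold or more, namely Mep1b, 2.05-fold higher in replicate 1, and Mep1a, 2.05-fold higher in replicate 2. The subunits of meprin thus went in opposite directions between the mice, and this held within clusters 1, 3 and 9. The direction between the mice turned with the stricter cell filter, under which 7 of 9 genes were higher in replicate 2 and Mep1b and Slc7a7 were higher in replicate 1. Anpep was then at 278 and 490 CPM, Ace at 24.6 and 89.3 CPM, Slc6a19 at 43.8 and 65.3 CPM and Slc15a1 at 14.5 and 40.5 CPM. That filter caps the mitochondrial share, whose median in cluster 1 was 15.1% in replicate 1 and 9.65% in replicate 2. It left 15 cells of clusters 1 and 3 together in replicate 1. The share over all genes was not taken with equal weights, within cluster 1 or with that filter. Those counts are therefore not read as particular to the 9 genes.

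Of genes outside the 9, those whose level over the 18 epithelial sums was most like the mean profile of the 9 were Apob (Pearson r 0.96), Slc5a11 (0.95), Pxk (0.94), 2010106E10Rik (0.93) and Apoc3 (0.93). The likeness was taken on log2 TMM-scaled CPM with a prior count of 2. Among the 9 genes the pairwise r ran from 0.32 to 0.91 with a median of 0.70, and the highest was that of Dpp4 with Slc15a1. Singly, the closest gene was Nr1d1 for Anpep (0.90), Apol10a for Enpep (0.98), Cyb5r3 for Dpp4 (0.95) and Myl12b for Ace (0.96). It was Cd36 for Mep1a (0.90), Myo5b for Mep1b (0.94), Por for Slc6a19 (0.91), Plb1 for Slc15a1 (0.94) and Slc25a37 for Slc7a7 (0.92). The 18 sums share 2 mice and differ in depth, and enterocytes stand apart in each profile, so these r are a description.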

How the data were processed

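Single-cell RNA-seq of jejunal crypts from 2 375KO mice was analysed, with 1 library per mouse. The authors aligned reads to mm10 with Cell Ranger 3.0.1, used Seurat 3.2.1 per the submitters' processing notes, and deposited UMI counts per gene and barcode in 1 matrix per library. Their methods name SoupX for ambient RNA and scDblFinder for doublets; whether the per-library matrices are corrected is not given in the sources used here. They kept cells with at least 1500 genes and at most 25% mitochondrial reads. The deposited table of cell annotations gives the mitochondrial percent, cluster number and cell type. Cells were matched to the matrices by sample prefix and barcode. For 3275 cells the table's totals equal those of the deposited count table of kept cells, and matrix totals exceed them by up to 29 and 262 UMIs a cell. Another 2937 cell columns of other samples were not used. The deposited sctransform values and doublet calls were not used.

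Counts were summed per mouse and cell type. The 18 epithelial sums (IEL left out) were fitted in edgeR 4.0.16 with filterByExpr, TMM factors and the robust quasi-likelihood test, with cell type and mouse as terms, since all sums of a mouse come from the same animal. Tests were two-sided, with Benjamini-Hochberg adjustment over 11013 genes, a threshold of 0.05 and 8 residual degrees of freedom. The SE is the log2 fold change over the square root of F. A mean ± SD over the 2 mice is not printed, since both values are given. Poisson and Clopper-Pearson intervals (95%) and the limit for a count of 0 (3 counts) cover counting error only. They take the deposited counts as uncorrected. Alternatives were DESeq2 1.42.0, RLE factors, no filter on low counts, no mouse term, a stricter cell filter, thinning, leaving out Paneth cells or a mouse, and pooling the other types. Leaving out a mouse meant taking log2 differences within the other mouse, without a refit or a test. Leaving out EEC was added after seeing the data. The fit was tested on simulated data. Python 3.11.15, pandas 2.3.3, scipy 1.17.1 and R 4.3.3 were used. Positions are from GENCODE M21 and promoters from RefSeq.

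The 9 genes, the listed genes and the markers were chosen with earlier results of these data known. Another listed gene is not reported here. Of the 25 listed genes, the 4 highest and 4 lowest past the threshold against TA cells are named, with Slc3a2, and Slc1a1 and the 3 untested genes as exceptions to their counts. Genes of like pattern are the 5 with the highest r to the mean profile and the 1 closest to each gene.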

Additional observations from a re-analysis of the deposited data

Results flagged for a closer look

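The barcodes that the authors did not keep as cells hold signal of the 9 genes, in data that no comparison above uses. In replicate 1 there were 5583 such barcodes with 20287851 UMIs, a median of 1581 UMIs and 32.9% mitochondrial UMIs, against 10.3% in the kept cells. All 9 genes lay above the limit that a count of 0 allows (0.148 CPM) with their whole Poisson interval. At this depth that limit is low, and the genes had from 259 (Mep1a) to 6313 (Anpep) UMIs. The share over all genes was not taken, so the 9 of 9 are not read as particular to these genes. Levels in these barcodes were 311 CPM for Anpep, 109 for Enpep, 95.2 for Dpp4, 90.4 for Ace and 12.8 for Mep1a. They were 193 CPM for Mep1b, 89.5 for Slc6a19, 32.9 for Slc15a1 and 63.1 for Slc7a7. Ace and Slc6a19 were higher there than over all kept cells of the same library, which had 61.8 and 66.8 CPM, and Enpep (189 CPM in kept cells) and Slc7a7 (118 CPM) were lower. Slc15a1 had 31.5 CPM in kept cells, and with mitochondrial UMIs left out of the totals it was at 49.1 CPM in these barcodes and 35.1 CPM in kept cells. Anpep was lower in these barcodes than in kept cells (383 CPM), but higher without mitochondrial UMIs, at 464 against 427 CPM. Dpp4, Mep1a and Mep1b were lower in these barcodes by both totals, and the order of the other genes did not change either.

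In replicate 2 there were 58 such barcodes with 1511657 UMIs, a median of 19374.5 UMIs and 2.18% mitochondrial UMIs. Anpep was at 28.4 CPM, Dpp4 at 15.9, Enpep at 9.26, Mep1b at 8.60 and Slc7a7 at 11.9, all below the level in kept cells. Mep1a was at 4.63 CPM, but the 95% Poisson interval reached below the limit of 1.98 CPM, and Ace, Slc6a19 and Slc15a1 had 3, 3 and 1 UMIs. The barcodes carry no cell type, and the cause was not tested. With 2 mice no group was large enough to be checked for a single deviating sample.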

How the results depend on the processing

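The 9 genes were higher in enterocytes than in TA cells, and also against the other epithelial types, under every alternative run. Log2 fold changes ran from 1.54 to 9.06 and from 1.98 to 8.32, with adjusted p up to 0.00113 and 0.000325 in the tests. Values without 1 mouse are differences of log2 TMM-scaled CPM (prior count 2) within the other mouse. They are not refits, carry no test and are another measure than the fitted values. The median of the 9 genes against TA cells ran from 4.44 to 5.09 without 1 mouse and was 3.93 with the stricter cell filter. Against the other types it ran from 5.11 to 5.99 without 1 mouse, was 4.94 with that filter and 4.50 with the other cells pooled. Against stem cells, the log2 fold changes of the 9 genes in TA cells ran from -3.52 to 2.69 over the alternatives. Their median was 0.76 in the main fit, ran from 0.30 to 0.70 without 1 mouse and was 0.19 after thinning to 5000 UMIs. With that thinning Anpep (-0.16) and Mep1a (-0.46) turned sign. The cause was not tested.

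Without the replicate block (the mouse term), genes past the threshold fell from 5694 to 2843 against TA cells (higher, from 3208 to 1604), from 6006 to 3946 against the other types, and from 532 to 70 between TA and stem cells (higher, from 323 to 61). The 9 genes kept 9 and 9 calls in the first and second comparison, and in the third edgeR called 0, with 1 at an unadjusted p under 0.05, and DESeq2 with the mouse term called 1. Without the filter on low counts, TA against stem cells gave 834 genes (622 higher), and 2 of the 9. Genes higher against TA cells were 2083 with the stricter cell filter and 1913 after thinning, and genes past the threshold against the other types were 3590 after thinning.

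The stricter cell filter left 15 enterocytes of replicate 1 in clusters 1 and 3 together, each under 10, so levels by cluster could not be compared there. It lowered the mean enterocyte level of 6 of the genes by more than the SD over mice, for example Ace from 134 to 56.9 CPM and Slc6a19 from 114 to 54.6 CPM. Depth limits the statements on EEC, secretory progenitors, tuft cells and IEL, whose sums of replicate 2 hold 215413 to 559907 UMIs.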
